A study of Mus musculus with 7 samples.

Results

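The genes examined here were 10 cadherin and desmosome genes (Cdh1, Cdh2, Cdh3, Cdh5, Cdh11, Dsp, Dsg2, Dsc2, Jup and Pkp1) among the 33710 genes with a row in the single-cell tables of 7 mouse mammary tumors. They were taken by symbol, and they were chosen from their levels across cell classes in these data, so the class levels given below are descriptions without a test. Each tumor came from 1 mouse and was sequenced as 1 Drop-seq library, a method in which single cells are captured in droplets with barcoded beads and each captured transcript is counted once by a unique molecular identifier (UMI). All 7 mice carried the MMTV-PyMT transgene, which drives the polyoma middle T oncogene from a mammary tumor virus promoter, together with a floxed hexokinase allele (HK2 f/f) and no Cre, and their genotype was labelled wild type. The collection time was 3 months from a palpable tumor. By the study's methods these control mice received tamoxifen too; the study's other mice were not analysed here. Library titles carry either CB (replicates 1 to 4) or WT (replicates 5, 7 and 8), and the difference between these 2 title series is not stated.

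Cadherins are calcium-dependent adhesion proteins that bind their own kind on the neighboring cell and are tied to the actin cytoskeleton through catenins at adherens junctions. Desmosomes are built from the desmosomal cadherins desmoglein and desmocollin, which connect through plakoglobin and plakophilins to desmoplakin and the keratin filaments. Epithelial cells of the mammary gland are held together by both kinds of junction, while endothelial cells and fibroblasts are known for cadherins of their own.

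Of 37000 barcodes, 15047 held 200 to 6000 genes and were kept as cells, 1133 to 4780 per mouse, with 962677 to 4471473 UMIs per mouse and a median of 527 to 694 UMIs per cell. 5 cell barcodes were shared by a pair of libraries. Clustering without the 10 genes and their partner genes gave 14 clusters, which were named from marker lists that hold none of the 10. The tumor class took 6162 cells in 4 clusters that scored highest for the list of milk genes and PYMT, though other genes led each of them (acute-phase genes such as Saa1 in cluster 0, interferon-response genes such as Ifit3 in cluster 9), the hormone-sensing luminal class 1706 cells, fibroblasts 1026, macrophages 1747, T/NK cells 2210 in 2 clusters, myoepithelial cells 270 and endothelial cells 145. No cluster was named dendritic, since the 884 cells of cluster 7 scored nearly alike for macrophage and dendritic markers, and they are called cluster 7 here. Outside these classes were 474 B or plasma cells and 423 cells of an erythroid cluster, which also held PYMT (2478 CPM). Levels are CPM, the UMIs of a gene per 1000000 UMIs summed over a class in 1 mouse, and only sums of at least 10 cells were used, which left all 7 mice for the large classes, 5 for myoepithelial cells and 3 for endothelial cells. The myoepithelial cluster carried Acta2, Cnn1 and Myh11 with less Krt14 (149 CPM) than tumor cluster 8 (555 CPM), and its lowest marker was Trp63. It held PYMT at 1114 ± 1277.5 CPM (SD, 239 to 3298 CPM over 5 mice). Pericyte or smooth muscle markers came to 295 CPM in sum there, and fibroblast markers to 2381 CPM in sum. The endothelial cluster had UMIs of all 8 endothelial markers, at 5312 CPM in sum, and pericyte markers at 1561 CPM in sum. What share of a class level came from such cells was not tested.

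Whether the RefSeq promoter table (GRCm38.p6) holds all 10 genes is not given here. Promoters were taken from it for 2 of them, Dsp and Jup. Their 250 bases before the start are shown because Dsp, the keratin filament anchor, was low outside the epithelial classes, while Jup, which serves both junction types, was also found in stroma. Capitals mark GGGCGG or its reverse complement CCGCCC, the GC box, and each sequence is written on the strand of its gene.
Dsp: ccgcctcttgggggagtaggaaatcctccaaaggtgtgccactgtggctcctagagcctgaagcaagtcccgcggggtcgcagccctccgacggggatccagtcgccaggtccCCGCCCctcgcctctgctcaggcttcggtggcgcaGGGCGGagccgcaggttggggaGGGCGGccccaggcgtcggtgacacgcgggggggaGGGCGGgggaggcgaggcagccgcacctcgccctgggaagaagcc
Jup: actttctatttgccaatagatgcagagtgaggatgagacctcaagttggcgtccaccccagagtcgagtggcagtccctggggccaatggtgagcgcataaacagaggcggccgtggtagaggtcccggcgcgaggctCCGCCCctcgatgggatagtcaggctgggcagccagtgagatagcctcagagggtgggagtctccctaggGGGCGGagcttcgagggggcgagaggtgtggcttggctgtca
The Dsp window (chr13:38151044-38151293, plus strand) was 72.4% GC with 4 GC boxes beginning 137, 102, 80 and 45 bases before the start. The Jup window (chr11:100397791-100398040, minus strand) was 62% GC with 2 GC boxes beginning 112 and 42 bases before the start. Over all 32851 promoters of the table, read on both strands in windows of the same length, GGGCGG was found in 32.7%, the E-box CANNTG in 66.2%, its form CAGGTG, the letters bound by SNAIL and ZEB factors, in 17.2%, and TATAAA in 12.4%. None of the last 3 was in either window, which says only that these letters are not there.

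By position in GENCODE M21 (GRCm38), 4 of the genes lie on chromosome 8: Cdh1 at chr8:106603351-106670246 and Cdh3 at chr8:106510891-106557297, 46.1 kb apart on the same strand, Cdh5 at chr8:104101625-104144511 and Cdh11 at chr8:102632095-102785642. Cdh2, Dsg2 and Dsc2 lie on chromosome 18, where Dsg2 and Dsc2 are 499 kb apart. Jup is at chr11:100368958-100397763, Pkp1 at chr1:135871395-135919207 and Dsp at chr13:38151294-38198577. Exons of Dsp overlap Gm10129 and exons of Dsg2 overlap Gm16090 on the other strand. Whether counting used the strand is not stated, so reads of such a pair cannot be told apart here. Drop-seq counts 3′ ends, and levels are compared between classes within a gene, never between genes.

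The classical cadherins divided between classes. Cdh1, E-cadherin of epithelial adherens junctions, had 2341 UMIs in 1648 cells and was highest in hormone-sensing sums, where the 7 mice had a lowest value of 243, a median of 279 and a highest of 522 CPM (311 ± 98.3, SD, n = 7). Tumor sums ranged from 115 over a median of 193 to 266 CPM (189.6 ± 47.2, n = 7). The ranges overlapped, but within each mouse the hormone-sensing sum was the higher in 7 of 7, by 0.68 ± 0.28 on the scale of log2(CPM + 10). T/NK sums followed at 64.5 ± 26.9 CPM (27.7 to 92.8), below every tumor sum. Myoepithelial sums came to 36.4 ± 31.5 CPM, with 43.4, 32.4, 0, 84.9 and 21.01 CPM in replicates 1, 4, 5, 7 and 8. Cluster 7 (34.7 ± 20.4 CPM) and macrophages (16.6 ± 15.9 CPM) came next, and from the T/NK sums down no class differed from its neighbor in this order by more than the spread between mice. Endothelial sums held 1 Cdh1 UMI among 97448, with 2 of 3 mice at 0, and fibroblast sums 6.09 ± 6.26 CPM with 3 of 7 mice at 0.

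Cdh2, N-cadherin, was rare, with 25 UMIs in 22 cells and no row in replicate 2, and 16 of those UMIs fell in the myoepithelial sums. Replicates 1, 4, 5, 7 and 8 had 86.9, 56.8, 0, 42.4 and 84.0 CPM there (54.0 ± 35.5, n = 5), so the gene was seen in 4 of the 5 mice, and the 31122 UMIs of replicate 5 are too few to show that it was absent there. Where cells were assigned to classes one by one rather than by cluster, only 53 cells of 3 mice were myoepithelial and held 2 Cdh2 UMIs (31.8 CPM). In hormone-sensing sums it was not seen in 2737724 UMIs, which allows up to 1.10 CPM, and fibroblast sums held 3 UMIs, all in replicate 8. In tumor sums it had 2 UMIs among 8040172. Cdh3, P-cadherin, known as a marker of basal mammary cells, was seen in the myoepithelial sums of replicate 4 alone (2 UMIs, 16.2 CPM), the other 4 mice were at 0, and tumor and hormone-sensing sums averaged 1.89 ± 1.90 and 2.22 ± 3.45 CPM. With cells assigned one by one the myoepithelial mean was 60.7 CPM, from 2 UMIs among 44725. With 23 UMIs in all, and no row in replicate 8, differences between classes were not detectable for Cdh3 at this depth.

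Cdh5 and Cdh11 were each concentrated in 1 stromal class. Cdh5, VE-cadherin of endothelial junctions, had 713, 622 and 534 CPM in the endothelial sums of replicates 4, 5 and 8 (623 ± 89.6, n = 3, 61 UMIs), and its mean was at most 6.38 CPM in each of the other 7 classes. The endothelial values did not overlap those of any other class. Cdh11, cadherin-11 of mesenchymal cells, had a lowest value of 206, a median of 319.8 and a highest of 499 CPM in fibroblast sums (328 ± 125, n = 7, 331 of 346 UMIs). The next class, macrophages, had 2.34 ± 3.57 CPM, lower in 7 of 7 mice and with no overlap.

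**Figure D1:**
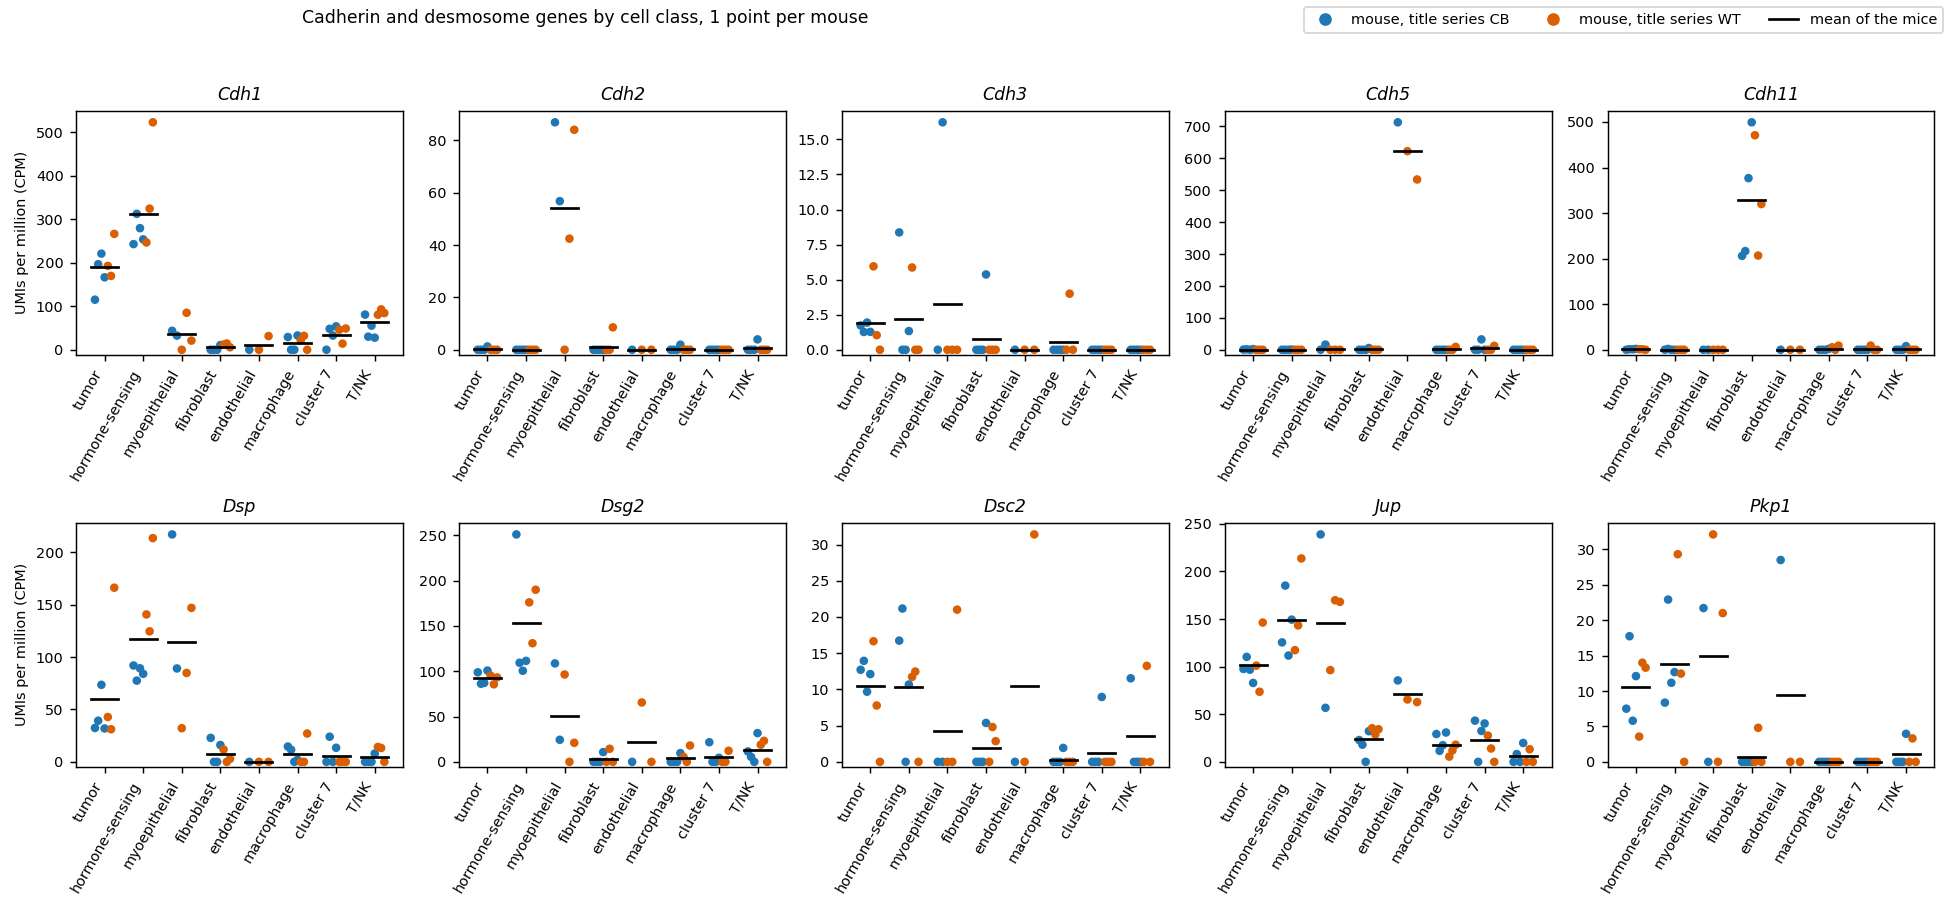
CPM (vertical axis, own scale per gene) of the 10 genes in each cell class (horizontal axis), 1 point per mouse with at least 10 cells of the class, colored by title series, with a line at the mean. Cdh5 stands out in endothelial sums (534 to 713 CPM) and Cdh11 in fibroblast sums (206 to 499 CPM), Cdh2 appears in 4 of 5 myoepithelial sums, and Cdh1, Dsp, Dsg2 and Jup are high in the tumor and hormone-sensing sums.

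Among the desmosome genes, Dsp, Dsg2 and Jup were epithelial and higher in hormone-sensing than in tumor sums in 7 of 7 mice each. Dsp, desmoplakin, ranged from 77.6 over 92.0 to 214 CPM in hormone-sensing sums (117 ± 48.3) and from 31.1 over 39.3 to 166 CPM in tumor sums (59.6 ± 49.3). Myoepithelial sums held 217, 89.2, 32.1, 84.9 and 147 CPM in replicates 1, 4, 5, 7 and 8 (114 ± 70.6), and overlapped the ranges of both luminal classes. Dsp was at or below 7.88 CPM in the mean of every fibroblast, endothelial or immune class of the 8. Dsg2, desmoglein-2, the desmosomal cadherin of simple epithelia, varied least between mice in tumor sums, where all 7 lay between 85.6 and 100.7 CPM (92.4 ± 6.20). In hormone-sensing sums it ran from 100.5 over 131 to 251 CPM (153 ± 55.3), and the upper end of the tumor range just overlapped the lower end. In myoepithelial sums the 5 mice had 109, 24.3, 96.4, 0 and 21.01 CPM, which overlapped the tumor range. Dsc2, desmocollin-2, was scarce, at 10.4 ± 5.41 CPM in tumor and 10.4 ± 7.94 CPM in hormone-sensing sums, and its 10.5 CPM in endothelial sums was 1 UMI in replicate 8.

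Jup, plakoglobin, which links cadherins to the cytoskeleton in both adherens junctions and desmosomes, was also found outside the epithelium. Hormone-sensing sums ranged from 112 over 143 to 214 CPM (149 ± 37.6), tumor sums from 73.7 over 97.6 to 146 CPM (101 ± 23.3), and myoepithelial sums were 239, 56.8, 96.4, 169.8 and 168 CPM. Endothelial sums held 85.5, 65.5 and 62.8 CPM in replicates 4, 5 and 8 (71.3 ± 12.4, 7 UMIs), of which the highest lay inside the tumor range, and all 3 were above every fibroblast sum (24.5 ± 12.5, n = 7). Pkp1, plakophilin-1, had 136 UMIs in all and averaged 10.6 ± 5.07 CPM in tumor, 13.8 ± 9.61 in hormone-sensing and 14.97 ± 14.4 in myoepithelial sums, which differed by less than the spread between mice. It was at 0 in all 7 macrophage sums and all 7 sums of cluster 7.

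RNA free in the suspension is caught with every droplet. Levels of Cdh1, Dsp, Dsg2, Jup and some partner genes outside the epithelium were therefore set beside the level expected if the class held only free RNA. For each mouse the expectation was the level of the gene in barcodes with fewer than 200 genes, scaled by the ratio of the luminal tracers Krt8, Krt18 and Epcam in the class to the same tracers in those barcodes. Jup in fibroblasts was 24.5 CPM against 4.79 expected (ratio 5.12, above in 6 of 7 mice, 30 UMIs). In endothelial sums it was 71.3 against 15.2 CPM (ratio 4.69, above in 3 of 3 mice). In macrophages it was 17.8 against 6.67 CPM (ratio 2.67, above in 7 of 7 mice), in cluster 7 22.5 against 7.95 CPM (ratio 2.84, above in 5 of 7), and in T/NK sums only 5.89 against 15.2 CPM (ratio 0.387, above in 2 of 7). The ratio of Dsg2 was 0.757 in fibroblasts, 0.776 in macrophages, 0.806 in cluster 7, 0.897 in T/NK sums and 1.33 in endothelial sums, where it rested on 2 UMIs in 1 of 3 mice. For Dsp the ratio was 2.31 in fibroblasts (7 UMIs, above in 3 of 7 mice) and 1.82 in macrophages (6 UMIs, above in 3 of 7). It was 0.786 in cluster 7 (4 UMIs), 0.477 in T/NK sums (9 UMIs) and 0 in endothelial sums, which held no Dsp UMI. The intervals and ratios rest on few UMIs and cover counting error only.

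For Cdh1 in lymphoid cells, the 7 T/NK sums held 72 UMIs where free RNA predicted 38.3, or 64.5 against 27.6 CPM (ratio 2.34), with replicate 4 below its expectation and the other 6 mice above. The T/NK clusters are given apart. Cluster 6, led by Gzmb, Xcl1, Nkg7 and Cd8a, genes of cytotoxic lymphocytes, held 51 UMIs against 13.05 expected. Its 6 sums (replicates 1, 2, 3, 4, 5 and 7) were 169.96, 43.0, 60.9, 32.4, 171 and 80.6 CPM, and the expectations were 23.3, 8.96, 11.4, 23.2, 7.11 and 33.3 CPM. All 6 were above (92.98 ± 62.2 against 17.9 CPM in the mean, ratio 5.20), which is a description without a test. The exact 95% Poisson intervals cover the observed count alone. The expectations have an error of their own, as they rest on 18 (replicate 5) to 57 (replicate 2) Cdh1 UMIs in the barcodes used for free RNA. No mouse is therefore scored by whether its interval lay above the expectation. Cluster 4, led by Icos, Lat and the T cell receptor constant genes, had 21 UMIs against 25.1 expected (56.5 ± 62.5 against 47.1 CPM, ratio 1.20, above in 3 of 6 mice). In the 5 mice with both clusters, Cdh1 was the higher in cluster 6 in 4, with replicate 7 the other way (80.6 against 127 CPM), and the ranges overlapped. The mean difference of 2.22 on the scale of log2(CPM + 1) was smaller than its SD of 3.21, so the Cdh1 levels of the clusters did not differ beyond the spread between mice. B or plasma sums had a ratio of 0.929 (5 UMIs), fibroblasts 0.63 (8 UMIs), macrophages 1.36 (31 UMIs) and cluster 7 2.32 (25 UMIs, above in 5 of 7 mice).

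The same UMIs can be given as Cdh1 UMIs per 1000 tracer UMIs, which is no further line of evidence. Pooled over mice, the barcodes with fewer than 200 genes held 34.5 and tumor cells 23.96. B or plasma cells held 21.7, cluster 4 30.8, macrophages 50.2, cluster 7 71.8 and cluster 6 147. By mouse the ranges overlapped, at 47.6 to 654 in cluster 6 (236 ± 217) and 0 to 143 in cluster 4. Cluster 7 ran from 0 to 222 (99.8 ± 81.3), macrophages from 0 to 174 and the barcodes with fewer than 200 genes from 27.2 to 52.0. The 46 cells of cluster 6 with a Cdh1 UMI carried a tracer UMI in 8.70% (exact binomial 95% interval 2.42 to 20.8%), against 15.8% of the 954 cells without one. Their T/NK markers were at 10960 against 10601 CPM. The 13 such cells of cluster 4 carried a tracer UMI in 61.5% (31.6 to 86.1%), against 15.04% of the other 1197 cells, and their T/NK markers were at 708 against 4136 CPM. Leaving out every T/NK cell with a tracer UMI left 66.4 ± 32.6 CPM over the 7 mice (51 UMIs in 1867 cells). Most T/NK cells held no tracer UMI at this depth, so this step cannot tell the share of free RNA in the rest. In cells thinned to 300 UMIs each, 2.49% of cluster 6 cells (21 of 843, 1.55 to 3.78%) had a Cdh1 UMI, against 0.534% in cluster 4, 0.553% in macrophages, 0.32% in fibroblasts, 4.66% in tumor and 8.86% in hormone-sensing cells. Cluster 7 had 1.502% (0.778 to 2.61%) and B or plasma cells 1.12% (0.307 to 2.85%). These shares and the tracer shares above pool the cells of all mice. Their intervals cover counting error and not the spread between mice, so no difference between classes is read from them. Thinning left out 157 cells of cluster 6, 273 of cluster 4, 89 fibroblasts, 645 tumor and 148 hormone-sensing cells. Before thinning the shares were 4.6%, 1.07%, 0.78%, 15.9% and 28.8%, at median depths of 461, 390, 701, 686 and 874.5 UMIs. For macrophages, cluster 7 and B or plasma cells, 119, 85 and 118 cells were left out, and the shares before thinning were 1.49%, 2.49% and 1.05% at median depths of 551, 534.5 and 373 UMIs. No doublet caller was run, and the part of doublets in these UMIs was not tested.

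**Figure D2:**
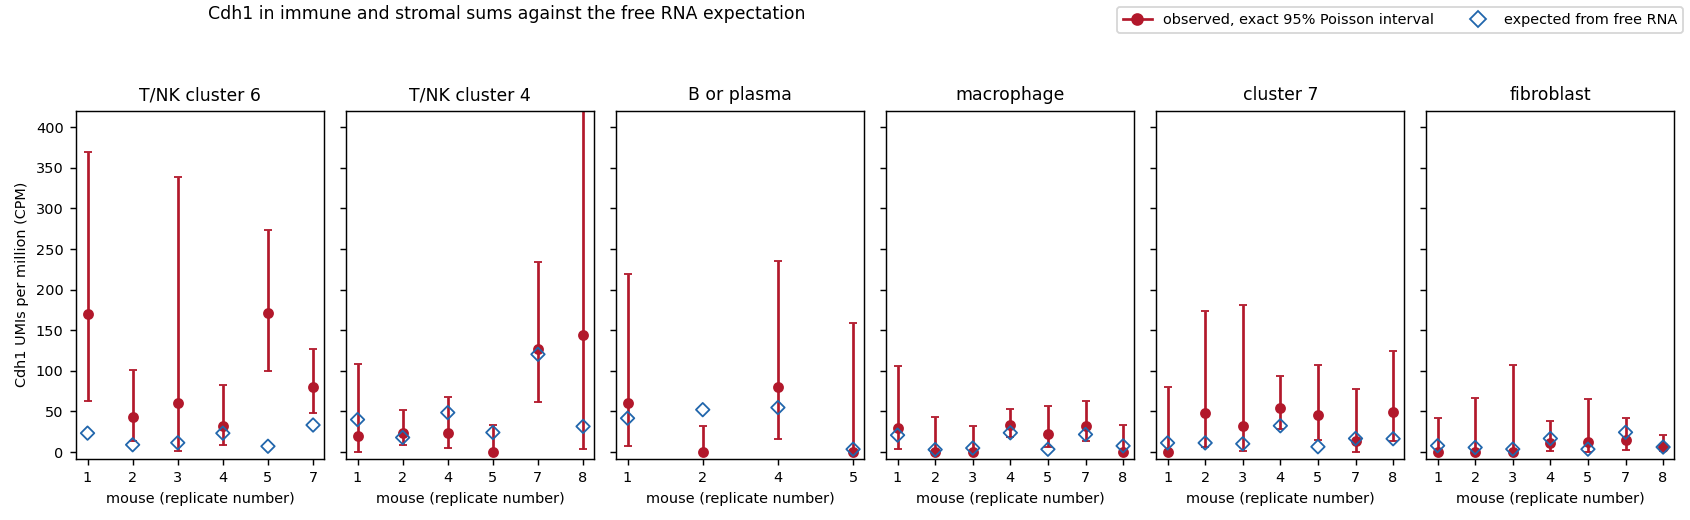
Cdh1 CPM (vertical axis) in the sums of each mouse (horizontal axis, replicate number) for 6 immune and stromal groups, with exact 95% Poisson intervals, beside the level expected from free RNA (diamonds). In T/NK cluster 6 all 6 observed values lie above their diamonds. The axis ends at 420 CPM, and the interval of replicate 8 in T/NK cluster 4 goes on to 806 CPM.

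Of the known receptors of E-cadherin on lymphocytes, Itgae and Itgb7 were read in the same cells, while the level of Klrg1 is not given here. Itgae, the integrin alpha E chain, averaged 143 ± 77.7 CPM in cluster 6 and 49.7 ± 36.3 in cluster 4, and Itgb7, its beta partner, 185 ± 54.6 and 226 ± 123 CPM. In cluster 6 the cells with a Cdh1 UMI had Itgae at 308 CPM and the others at 135 CPM, from pooled UMIs with no test. Other desmosome genes were also found in T/NK sums: Pkp3, plakophilin-3, at 83.1 ± 52.6 CPM (ratio to the free RNA expectation 5.75, above in 6 of 7 mice) and Perp, a tetraspan protein of desmosomes, at 39.9 ± 26.3 CPM (ratio 3.13, above in 6 of 7). Pkp2 had a ratio of 1.75 there (10 UMIs, above in 5 of 7) and 4.13 in cluster 6 (9 UMIs, above in 5 of 6). Among partner genes outside the desmosome, Esrp1 had 2.06 in T/NK sums (13 UMIs, above in 4 of 7) but 0.614 in cluster 6. Nectin4 had 0.537 in T/NK sums. Pkp3 had 136 ± 86.8 CPM in cluster 4 and 53.1 ± 35.2 CPM in cluster 6, and the ranges overlapped. It was not particular to T/NK cells: cluster 7 had 33.5 ± 22.1 CPM (ratio 4.31, 20 UMIs, above in 6 of 7 mice). B or plasma sums had 50.4 ± 44.0 CPM (ratio 2.66, 11 UMIs, above in 3 of 4), while macrophages had a ratio of 0.547 (6 UMIs).

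Within the tumor class, the 4 clusters were compared in the same mice. Cluster 8, led by Edn1, Csn1s1 and Krt14 and with 386 of its 693 cells from replicate 3, had the highest means of Cdh1 (265 ± 61.6 CPM) and Dsp (129 ± 93.2 CPM). Its Dsp values ran from 60.9 over 93.9 to 333 CPM and exceeded those of cluster 0 (56.0 ± 57.6 CPM) in 7 of 7 mice. Replicate 8 was highest for Dsp in clusters 0, 1 and 8, with 186, 79.2 and 333 CPM. Between the 2 largest clusters, cluster 0 (2595 cells, led by Saa1, Saa2, Spp1 and Ltf) and cluster 1 (2316 cells, led by Thrsp, Emid1 and Lalba), 4 of the 10 genes had enough UMIs for edgeR's quasi-likelihood test with mouse as block. None of the 4 passed an adjusted p of 0.05: Cdh1 had a log2 fold change of 0.32 ± 0.12 (SE) toward cluster 0 (Benjamini-Hochberg adjusted p = 0.0567) and Jup 0.35 ± 0.15 (adjusted p = 0.102), while Dsp (0.23) and Dsg2 (-0.16) had smaller differences. Without replicate 4, or without replicate 8, Cdh1 passed. In the same test 13.3% of the 4743 genes tested were higher and 11.4% lower in cluster 0. The clusters were cut from these cells' expression, so these calls set a difference against the spread between mice and are no test of the clusters.

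Of the 13 partner genes tested between those clusters, 3 were higher in cluster 0 and 0 lower, with a median log2 fold change of 0.30 against -0.02 over all genes. All 3 were in the list of catenins and adherens junction genes, of which 6 were tested: the nectins Nectin4 (132 against 72.5 CPM, log2 fold change 0.96 ± 0.14, edgeR adjusted p = 9.65e-06, 7 of 7 mice) and Nectin2 (59.5 against 35.9 CPM), and Afdn, afadin, which ties nectins to actin (162 against 120.0 CPM, 0.56 ± 0.13, edgeR adjusted p = 0.00283, 7 of 7 mice). Nectin2 (edgeR adjusted p = 0.0483) lost the threshold under 9 of 12 alternatives and Afdn under 1 of 12 (without the mouse as block, edgeR adjusted p = 0.127). Pkp1 was too scarce for the test and had 12.9 ± 4.13 CPM in cluster 0 against 5.17 ± 6.69 in cluster 1, and was the higher in cluster 0 in 6 of 7 mice.

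**Figure D3:**
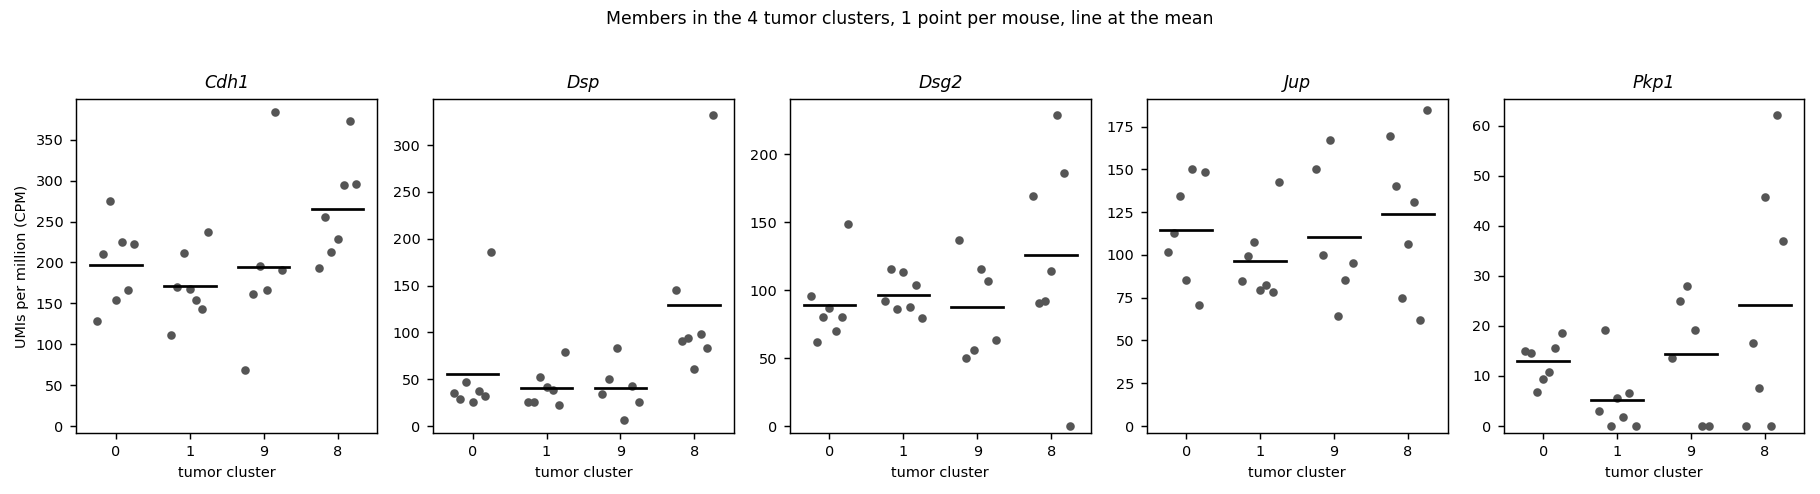
CPM (vertical axis) of Cdh1, Dsp, Dsg2, Jup and Pkp1 in the 4 tumor clusters (horizontal axis), 1 point per mouse with at least 10 cells, with a line at the mean. Dsp is highest in cluster 8 (129 CPM in the mean), where 1 mouse, replicate 8, reaches 333 CPM.

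57 partner genes in 6 lists (other cadherins, catenins and adherens junction genes, other desmosome genes, repressors of E-cadherin, epithelial regulators, and lymphocyte receptors of E-cadherin) were read from the same sums, and 56 of them had a row. Between hormone-sensing and tumor sums, edgeR with mouse as block tested 16 of them, of which 4 were higher in hormone-sensing sums and 0 lower, with a median log2 fold change of 0.25 against -0.02 over all 7419 genes tested, of which 15.3% were higher and 15.9% lower. The 4 were Ppl, periplakin of the desmosomal plaque (64.4 against 35.4 CPM, log2 fold change 0.93 ± 0.25, adjusted p = 0.00459), Afdn (245 against 149 CPM, 0.71 ± 0.14, adjusted p = 1.62e-04), Esrp2, an epithelial splicing regulator (39.2 against 20.4 CPM, adjusted p = 0.0262), and Ctnna1, alpha-catenin (342 against 251 CPM, adjusted p = 0.0198). Esrp2 lost the threshold under 5 of 13 alternatives, Ctnna1 under 5 of 14 and Ppl under 1 of 14 (without replicate 4, edgeR adjusted p = 0.0658). As the classes were cut from the same cells, these calls too describe differences against the spread between mice, as do the 3 comparisons that follow, and all 4 comparisons share the tumor sums.

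Between myoepithelial and tumor sums of 5 mice, 5 partner genes were tested, where 12.5% of 2412 genes were higher and 9.41% lower (median log2 fold change 0.55 against -0.04 over all genes). Afdn (28.6 against 159 CPM) and Nectin4 (32.2 against 104 CPM) were scarce in myoepithelial sums, and lower there in 5 of 5 mice. Both passed the filter on low counts through the tumor sums. Their calls follow from that filter, so they are given as levels. Perp was higher in 4 of 5 mice (235 against 129 CPM, edgeR adjusted p = 0.0440), a call lost under 10 of 12 alternatives.

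Between fibroblast and tumor sums, 12 partner genes were tested, with 2 higher and 8 lower (background 24.1% higher and 23.1% lower of 4311 genes). Of these, 6 were nearly absent from 1 of the classes and could pass the filter on low counts only through the other, so their calls follow from that filter and they are given as levels. The desmosome genes Pkp2, Pkp3 and Perp had 1, 2 and 5 UMIs in fibroblast sums and 63.3 ± 6.16, 62.0 ± 7.10 and 139 ± 38.8 CPM in tumor sums. Esrp1, an epithelial splicing factor, had 2 UMIs and Nectin4 5 UMIs in fibroblast sums, against 76.6 ± 10.3 and 105 ± 32.7 CPM in tumor sums. Zeb2, a zinc finger repressor of Cdh1, had 176 ± 22.5 CPM in fibroblast and 1.80 ± 1.31 CPM in tumor sums. Afdn, present in both classes, was lower in fibroblasts (45.1 against 149 CPM, log2 fold change -1.39 ± 0.26, edgeR adjusted p = 1.85e-04, 7 of 7 mice). Nectin2 (14.3 against 49.6 CPM) was scarce in fibroblast sums and passed that filter through the tumor sums, so it too is given as levels. The smaller changes of the other 2 called genes were not run under the alternatives and are not named. Between endothelial and tumor sums of 3 mice, 4 partner genes were tested, beside 15.9% higher and 11.8% lower among 1796 genes. 3 of them did not pass. Cdh13, T-cadherin of vessels, passed the filter only through the endothelial sums and is given as levels, with 640.2 ± 140.3 CPM (63 UMIs) there and 2 UMIs in the tumor sums of the same mice.

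The repressors of E-cadherin were too scarce in most sums for a test and are given as levels. Twist1 was at 122 ± 79.9 CPM and Zeb1 at 96.7 ± 43.7 CPM in fibroblast sums. Snai1, the gene of SNAIL, had 99.3 ± 69.3 CPM in endothelial sums (n = 3, 10 UMIs), 42.4 ± 24.9 CPM in fibroblast sums (44 UMIs) and 17.0 ± 10.5 CPM in tumor sums, where most of its UMIs lay (112) and no mouse was at 0. Snai2 had 65.0 ± 109 CPM in myoepithelial sums, with a highest value of 257 and a lowest of 0. Zeb2 was not a fibroblast gene alone, with 224 ± 33.0 CPM in macrophages and 316 ± 127 CPM in cluster 7. The epithelial regulators Esrp1 (76.6 ± 10.3 CPM in tumor, 102 ± 34.9 in hormone-sensing sums) and Grhl2 (23.6 ± 8.28 and 24.2 ± 13.1 CPM) were found in both luminal classes.

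**Figure D4:**
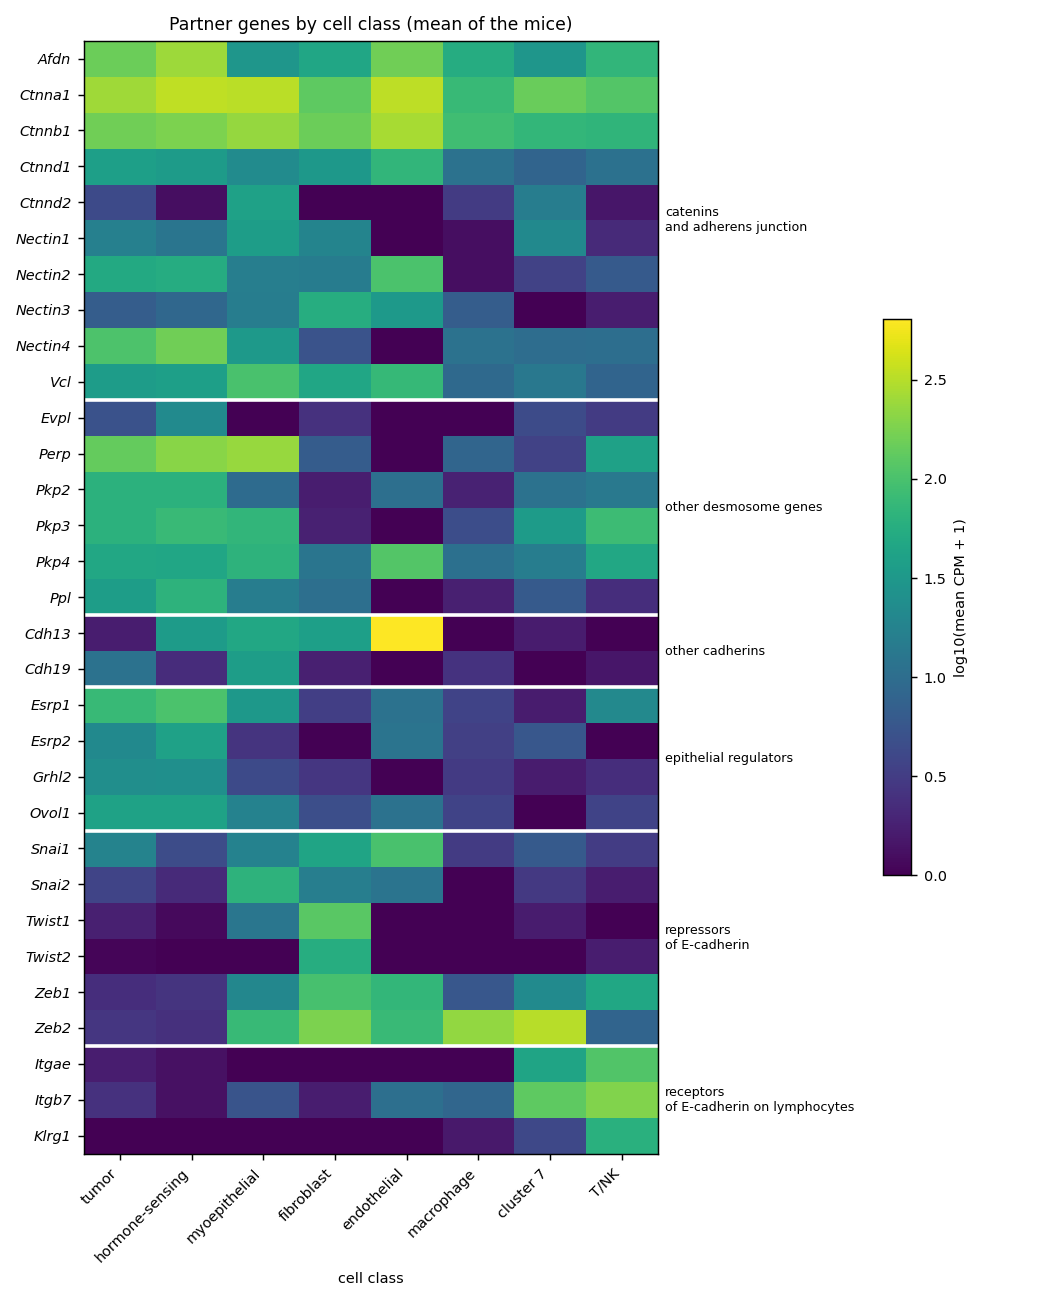
Mean level over mice, as log10(mean CPM + 1) in color, of the 31 partner genes (vertical axis) with a mean of at least 15 CPM in any of the 8 groups (horizontal axis), grouped by list. Cdh13 is brightest in endothelial sums (640.2 CPM), Zeb2 in cluster 7 (316 CPM), and Pkp2, Pkp3, Perp and Nectin4 are dark in fibroblasts.

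By likeness over 50 sums of mouse and class, among 3876 genes, the genes nearest to Cdh1 were Krt18 (Pearson's r of log2(CPM + 10) = 0.87), Epcam and Krt8. Cdh5 was nearest to Robo4 (0.96), Adgrl4 and Gpihbp1, and Cdh11 to Abca8a (0.98), Mmp23 and Sfrp4. Dsp was nearest to Perp (0.84), Cdcp1 and Sox9, Dsg2 to Cdcp1 (0.88), Sfn and Serpinb5, and Jup to Serpinb5 (0.82), Dstn and Alg14. Pkp1 was nearest to Grb14 (0.77), Dsc2 to Ptprf (0.66) and Cdh3 to Clca3a2 (0.52). The sums of 1 mouse share a library and differ in depth, so these values are descriptions.

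The libraries of the CB and WT title series were compared in the tumor sums. edgeR called 0 of 9260 genes at an adjusted p of 0.05 (0.0% higher and 0.0% lower, 446 at an unadjusted p under 0.05; DESeq2 called 7). Of the 10 genes, 9 were examined by an exact permutation test, 2-sided, over 35 regroupings. Its p doubles the smaller tail, so with so few regroupings it could not fall below 0.05. Cdh1 was 209 ± 50.4 CPM in the WT and 175 ± 45.6 CPM in the CB series (exact permutation p = 0.457, adjusted 0.964). Exact permutation p-values ran from 0.229 to 0.971, and the test cannot show whether any of the 9 differed between the series. p-values here measure the spread between mice.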

How the data were processed

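The authors made 1 Drop-seq library per tumor and deposited 1 digital expression matrix per library, whose values are UMI counts per gene and barcode (raw counts, not normalized). By the study's methods reads were aligned to mm10 with the PyMT sequence added, while the submitters' processing notes name STAR, FastQC, hg19 and GRCh37.p13 without a role. Whether counting used the strand is not stated. No column belonged to another series.

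Barcodes with 200 to 6000 genes were kept. Cells of all 7 matrices were log-normalized and clustered in Seurat 5.3.0 (586 variable genes, 20 principal components, resolution 0.6) without the 10 genes and their partners; only Itgb7 had been variable. The study's methods used 9 components, with which no cluster was named endothelial or myoepithelial. A cluster took the name of its highest scoring marker list, and lists within 0.25 of each other were named together; this score and margin were set after the clusters were seen. Counts were summed per mouse and cluster name for sums of at least 10 cells, and tested with edgeR 4.0.16 (R 4.3.3; TMM, filterByExpr, quasi-likelihood, mouse as block, adjusted p threshold 0.05). Replicate numbers name mice, and both sums of a pair came from 1 mouse. DESeq2 1.42.0 was an alternative. The code was tested on simulated data. Single values used an exact permutation test of log2(CPM + 1). Levels are mean ± SD over mice; intervals are exact 95% and cover counting error only.

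The 10 genes and the lists were chosen with earlier results of these data known. Named partner genes are those past the threshold, at most 8 per comparison by size of change, and per gene the 3 most alike genes among those reaching 100 CPM in a sum; those of Cdh2 are not reported here. Partner levels given without a test, the tumor cluster comparisons other than the tested pair and the motifs were chosen after values were seen. Promoters were taken from RefSeq. Depth is given with each UMI count; a count of 0 allows up to 3 counts.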

Additional observations from a re-analysis of the deposited data

Results flagged for a closer look

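20 combinations of gene and class were examined for a single mouse far from the others, by the largest gap over the range. A gene seen in 1 mouse alone is flagged by this rule whatever its level, so the number found is no measure of an excess. 5 were found, each given as a value. Replicate 8 stood above the other mice for Cdh1 in hormone-sensing sums (522 CPM, 39 cells) and for Dsp in tumor sums (166 CPM, 25 UMIs of 150308 in 132 cells), the smallest tumor sum of the 7. Cdh2 in tumor sums was seen only in replicate 4 (1.27 CPM, 2 UMIs). Cdh3 stood out in the myoepithelial sum of replicate 4 (16.2 CPM, 2 UMIs) and in the tumor sum of replicate 5 (5.95 CPM). Without replicate 8 the mean of Cdh1 in hormone-sensing sums was 276 CPM.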

How the results depend on the processing

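Of 74 alternative counts over all genes, 62 stayed within 1.5 times the count given, and of 114 alternative levels and ratios 110 moved by less than 1 SD between mice. Without a filter on low counts the genes called came to 1617 for myoepithelial, 4857 for fibroblast and 981 for endothelial against tumor sums and 198 for the title series; with at least 500 genes per cell the endothelial count was 312 and Cdh5 in endothelial sums 529.7 CPM. DESeq2 called 7 genes between the title series. Without the mouse as replicate block, the comparison of the 2 largest tumor clusters called 476 genes, and Afdn, Nectin2 and, between hormone-sensing and tumor sums, Ctnna1 lost the threshold, as did Perp in myoepithelial sums. With cells assigned one by one, Cdh2 in myoepithelial sums was 31.8 CPM and Cdh3 60.7 CPM (2 UMIs each of 44725), Cdh5 in endothelial sums 789.8 CPM and Pkp1 in myoepithelial sums 0. Leaving out 1 mouse gave 203 to 733 genes for endothelial, 1407 to 2492 for hormone-sensing and 312 to 948 for myoepithelial against tumor sums and 0 to 1 for the title series. The lowest of the first 3 came without replicate 4, the highest without replicate 8, and the cause was not tested. Without replicate 4 the mean of Cdh3 in myoepithelial sums was 0, and without replicate 8 that of Dsc2 in endothelial sums was 0. Of 360 alternative fits of single genes, 33 lost the threshold and 2 passed it, both for Cdh1 between the tumor clusters. The excess of Cdh1 over free RNA in T/NK sums was 1.85 to 3.31 with other tracers or sources, and in cluster 6 it was 3.86 to 8.92 over alternatives chosen after seeing the data. The hormone-sensing class was a single cluster, so its planned comparison of clusters was not run, and 9 components gave no myoepithelial or endothelial value. Depth limits Cdh2, Cdh3, Dsc2 and Pkp1, and the endothelial and myoepithelial classes.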

Other observations

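At a clustering resolution of 1.0, T/NK cells split further, and Pkp3, plakophilin-3, was highest in cluster 14, which held 301 cells led by Il17a, Cd163l1, Trdc and Tcrg-C1, genes of gamma-delta T cells. Its sums averaged 224 ± 120 CPM over 6 mice (30 UMIs), with every mouse between 124 and 453 CPM, against 45.7 ± 38.5 CPM in cluster 6 of that clustering. Itgb7 was at 450.2 ± 259 CPM and Itgae at 107 ± 69.2 CPM in the same cells, and Cdh1 at 59.9 ± 90.8 CPM from 6 UMIs. At that resolution a cluster of 733 cells was named dendritic, and its Cdh1 level was 32.6 ± 26.2 CPM.

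In the erythroid cluster, Cdh1 was at 183 ± 89.6 CPM, Dsg2 at 95.4 ± 46.9 CPM and Jup at 113 ± 76.8 CPM (n = 4), with Cdh1 between 112 and 309 CPM where tumor sums ran from 115 to 266 CPM, beside Hbb-bt and Hba-a2 as leading genes. Tumor markers summed to 41400 CPM there and to 52618 CPM in tumor cells.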
